A study of Mus musculus with 183 samples.

Results

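The mRNAs of the RNA exosome core were followed in mouse embryonic stem cells (mESCs). The members were listed by name and comprised Exosc1, Exosc2, Exosc3, Exosc4, Exosc5, Exosc7, Exosc8, Exosc9, Exosc10 and Dis3. All 10 were found among the 53380 genes of the count table and all 10 among the 7240 mRNAs with crosslinking data, and all 10 passed the filter on low counts in every comparison.

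The RNA exosome is the major machine that degrades and trims RNA from the 3′ end. Its catalytically inert core is a ring of RNase PH-like subunits closed by a cap of RNA-binding subunits, and RNA is threaded through the ring to the nuclease DIS3, or handed to the nuclease EXOSC10 on top of the core. The helicase MTR4 feeds the exosome in the nucleus, and the SKI complex with its helicase SKIV2L feeds it in the cytoplasm, whereas XRN1 degrades mRNAs from the 5′ end. Most subunits are required for growth of dividing cells.

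The half-life experiment comprised 47 RNA-seq libraries of 2 mESC clones at 4 times of actinomycin D, which blocks transcription. Clone 5F was Rosa26 Cre-ERT2/- Skiv2l fl/fl. Clone 7E was Aven-/-, Rosa26 Cre-ERT2/BirA-V6 and homozygous for 3xFLAG-Avi-tagged Skiv2l, and other labels of 7E add Skiv2l fl/fl. Cells were taken at day 0 or after 4 days of 0.1 µM 4OHT (4-hydroxytamoxifen), which activates Cre-ERT2 to delete the floxed exons, and then received actinomycin D for 120, 240 or 360 min or DMSO alone (mock, taken as 0 min). Each group had 3 libraries, except 5F at day 0 and 120 min with 2. Each genotype was 1 clone, so differences between 7E and 5F in Aven, tag and parent line cannot be told apart. The study calls its replicates technical, so p-values measured the spread between these libraries and not between independent cultures.

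Libraries held 24440935 to 34114250 gene counts. Stem cell markers were high in the mock libraries, Pou5f1 at 661 to 996 CPM (counts scaled to library size), while the fibroblast collagens Col1a1, Col1a2 and Col3a1 stayed at or below 2.59 CPM. Of the other fibroblast markers, Thy1 reached 5.04 CPM and Vim, which is not specific to fibroblasts, lay at 80.7 to 130 CPM. Reads summed over the targeted gene did not fall in clone 5F. Normalized read counts of Skiv2l were 4150, 4136 and 4205 at day 0 and 4415, 3825 and 4162 in the 3 libraries labelled day 4 (log2 fold change -0.01, standard error 0.05, adjusted p = 0.914). In 7E they were 968, 1038 and 903 at day 0 and 406, 389 and 368 at day 4 (log2 fold change -1.32, standard error 0.07, adjusted p = 7.78e-13). Skiv2l was thus already lower in 7E than in 5F before 4OHT, by a log2 difference of -2.10. The 5F libraries are therefore called libraries labelled day 4. After actinomycin D, 12 libraries, 1 in each clone, day and time, stood apart with 0.214 to 0.664% of counts from the mitochondrial 16S rRNA, against 0.857 to 3.07% in the others, mocks included. They were replicate 1 at 120 min, replicate 2 at 240 min and replicate 3 at 360 min in every clone and day. Within their groups Exosc10 was lower in 12 of these 12 libraries (median log2 difference -0.19), and Exosc2, Exosc3, Exosc5, Exosc7, Exosc9 and Dis3 were each higher in 12 of 12 (medians 0.09 to 0.19). The same count was not made over all genes, so these shifts are not known to be particular to the members. Decay values below are therefore also given without the 12 libraries.

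The members were ordered by level per length from the authors' RPKM (reads per kilobase of transcript, scaled to library size), taken as the median of 3 tagged lines. The median of the 10 members was 84.5 RPKM, against 21.2 for all 7240 mRNAs. Exosc3 stood highest at 132 RPKM, followed by Exosc7 at 127, Exosc8 at 119 and Dis3 at 116. Exosc9 had 85.7 and Exosc2 83.2. Exosc10 had 52.3, Exosc1 45.2, Exosc5 25.0 and Exosc4 20.3, and Exosc4 was thus close to the median mRNA although its protein is part of the same ring as that of Exosc7. The highest member exceeded the lowest 6.52-fold. These RPKM values carry no replicate error, but the 3 lines overlapped for Exosc3 (125 to 137), Exosc7 (107 to 134), Exosc8 (115 to 126) and Dis3 (104 to 125), so no order was set among these 4. The ranges of Exosc9 (75.5 to 94.4) and Exosc2 (75.3 to 98.6) also overlapped. Mock counts of 5F at day 0 per kilobase of the same transcripts put Exosc4 last as well, at 718 ± 63.7 (SD, n = 3), and Exosc1 next to last at 998 ± 66.9. On that scale, however, Dis3 was highest at 2838 ± 150.5, Exosc3 fell to 1352 ± 56.5, and only 3 of 10 members kept their rank.

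The first question was whether exosome mRNAs changed in steady state after 4OHT. In clone 5F, 3 members were lower and 1 higher in the mock libraries labelled day 4 than at day 0, while 11.6% of 16349 tested genes were lower and 12.8% higher. Exosc7 (chr9:123113215-123136129, plus strand, GRCm38), which encodes a ring subunit, moved most. Its normalized read counts were 2387, 2401 and 2470 at day 0 and 1984, 1816 and 1893 in the libraries labelled day 4. The groups did not overlap, and the log2 fold change was -0.35 (standard error 0.05, adjusted p = 2.59e-05 by Benjamini-Hochberg from edgeR's quasi-likelihood fit of all genes). The cap subunit mRNA Exosc2 was lower by a similar pattern, with 3600, 3570 and 3648 at day 0 and 3192, 3289 and 3054 later. The groups were apart by -0.18 on the log2 scale (standard error 0.05, adjusted p = 0.00595). Exosc9, another ring subunit, went from 2437, 2262 and 2506 to 2209, 2189 and 2102 without overlap (log2 fold change -0.15, adjusted p = 0.0379).

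Exosc10 (chr4:148558429-148582401, plus strand), the mRNA of the nuclear nuclease, moved the other way. Its counts were 4076, 4100 and 4149 at day 0 and 4775, 4510 and 4670 in the libraries labelled day 4, again without overlap (log2 fold change 0.18, standard error 0.04, adjusted p = 0.00483). The core nuclease mRNA Dis3 overlapped between the groups, with 15176, 13731 and 14939 against 15029, 15391 and 14126 (log2 fold change 0.02, standard error 0.05). The remaining members Exosc1, Exosc3, Exosc4, Exosc5 and Exosc8 had log2 values of -0.10 to 0.11 with adjusted p of 0.127 or more, although Exosc8 did not overlap between the groups. Only the Exosc7 call held when replicate 1 or replicate 3 was left out of both groups. Without replicate 3 Exosc9 had a log2 value of -0.09 (adjusted p = 0.408), Exosc2 of -0.15 (adjusted p = 0.138) and Exosc10 of 0.18 (adjusted p = 0.0537). Without replicate 2 Exosc4 (0.20, adjusted p = 0.0188) and Exosc8 (-0.14, adjusted p = 0.0393) passed as well. Without replicate 1 the adjusted p of Exosc9, Exosc2 and Exosc10 was 0.187, 0.0785 and 0.121. With spike-in scaling of single libraries Exosc10 was at 0.11 (adjusted p = 0.252).

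**Figure D1:**
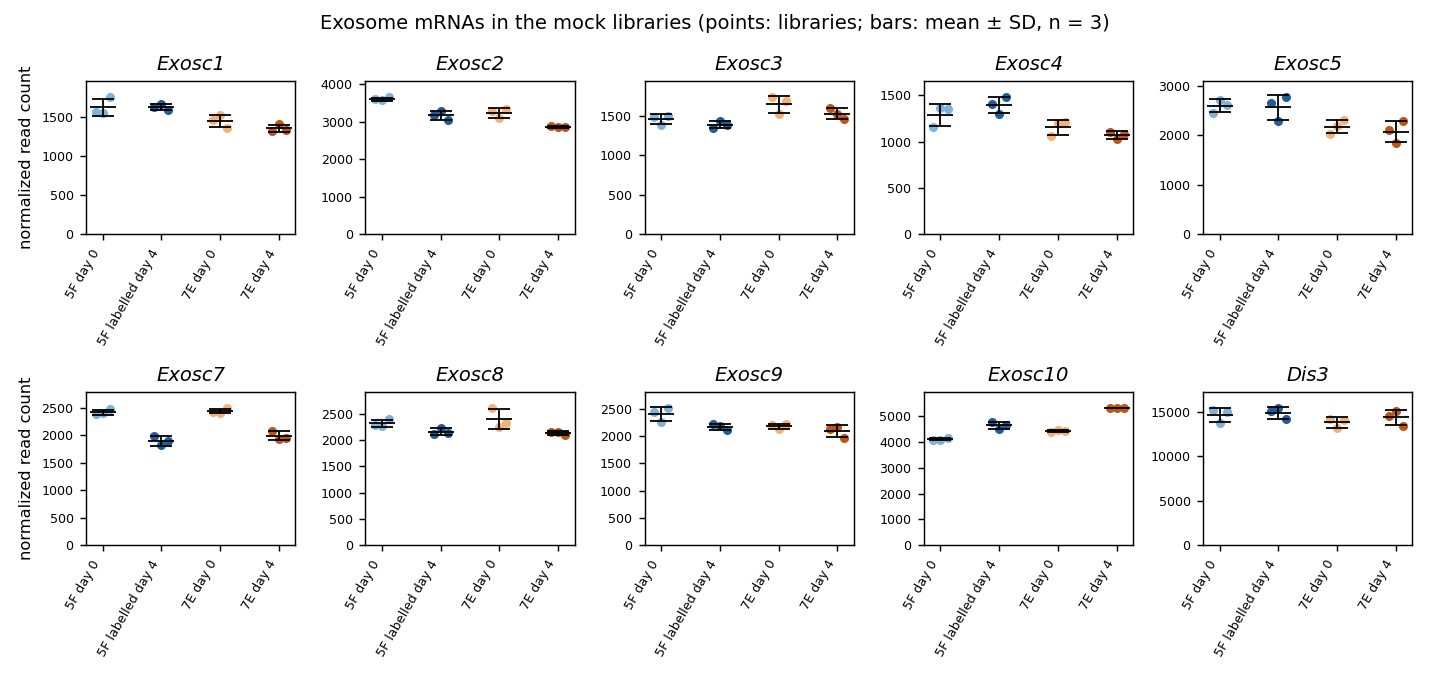
Normalized read counts (y axis, from 0) of the 10 exosome mRNAs in the 12 mock libraries, by clone and day. Points are libraries and bars the mean ± SD of 3. Exosc7 and Exosc2 were lower, and Exosc10 higher, at or labelled day 4 in both clones without overlap.

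In clone 7E, where Skiv2l fell, 3 members were again lower and 1 higher at day 4, against 19.4% and 20.7% of 16333 tested genes. Exosc7 counts were 2417, 2414 and 2493 at day 0 and 2084, 1933 and 1958 at day 4 (log2 fold change -0.29, standard error 0.05, adjusted p = 8.67e-05). Exosc10 counts were 4397, 4471 and 4418 at day 0 and 5309, 5317 and 5317 at day 4 (log2 fold change 0.26, standard error 0.04, adjusted p = 4.88e-05). Neither gene overlapped between days. Exosc2 fell from 3280, 3097 and 3343 to 2898, 2864 and 2852 (log2 fold change -0.17, adjusted p = 0.00689). The ring subunit mRNA Exosc8 went from 2611, 2259 and 2331 to 2157, 2153 and 2103 (log2 fold change -0.17, adjusted p = 0.0216). Exosc9 was at -0.06 and Dis3 at 0.06, both with overlapping libraries, and the other 4 members were at -0.11 to -0.07 with adjusted p of 0.16 or more. Exosc7 and Exosc10 stayed past the threshold whichever replicate was left out. Exosc2 and Exosc8 did not without replicate 1, where their log2 values were -0.17 (adjusted p = 0.0992) and -0.11 (adjusted p = 0.334).

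Markers moved with the day as well. The summed stem cell markers went from 2177 to 2219 CPM to 1956 to 2069 CPM in 5F and from 2332 to 2445 CPM to 1947 to 2022 CPM in 7E. The summed primitive endoderm markers went from 68.6 to 70.4 CPM to 58.6 to 61.0 CPM in 5F. In 7E they went the other way, from 6.63 to 7.60 CPM to 7.57 to 8.40 CPM, with overlap. The fibroblast markers went from 82.9 to 86.5 CPM to 98.98 to 107 CPM in 7E. In 5F they went from 133 to 137 CPM to 124 to 135 CPM, with overlap. Most of the fibroblast sum was Vim, at 80.7 to 130 CPM. The part of these markers in the member values was not tested.

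The values above describe each mRNA's share of the total. The ratio of mRNA to ERCC spike-in counts in 7E mocks was 300 ± 5.40 (SD, n = 3) at day 0 and 144 ± 1.23 at day 4, whereas in 5F it was 329 ± 12.7 and 319 ± 13.1. Fewer cells and less RNA per cell cannot be told apart in these bulk samples. With spike-in scaling of single libraries 14717 of 16333 genes were called lower in 7E. The median of all genes moved to -1.11 and all 10 members passed the threshold as lower, from -1.39 for Exosc7 to -0.84 for Exosc10. Relative to that median Exosc7 still lay below and Exosc10 above, but the direction of Exosc10 itself flipped with this scaling.

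Whether the response differed between the clones was tested by the interaction of clone and day. None of the 10 members passed (0 higher and 0 lower, against 6.65% and 5.29% of 17209 genes), with 1 at an unadjusted p under 0.05 by edgeR and 0 called by DESeq2. That gene was Exosc4, whose log2 difference was -0.22 (standard error 0.10, adjusted p = 0.147). The difference was 0.06 (standard error 0.07) for Exosc7 and 0.08 (standard error 0.06) for Exosc10. The 2 day contrasts share no libraries, although the size factors of all mocks were computed together. Their values were similar for Exosc7, Exosc2 and Exosc10. How many of all genes were called in the same direction in both was not counted. The 5F libraries labelled day 4 showed no fall of Skiv2l counts summed over the gene, and the cause of these values was not tested. With each library's own spike-ins all 10 members were lower in the interaction test, at -1.25 to -0.94, around an all-gene median of -1.03. Of 17209 genes, 14319 were called lower there.

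**Figure D2:**
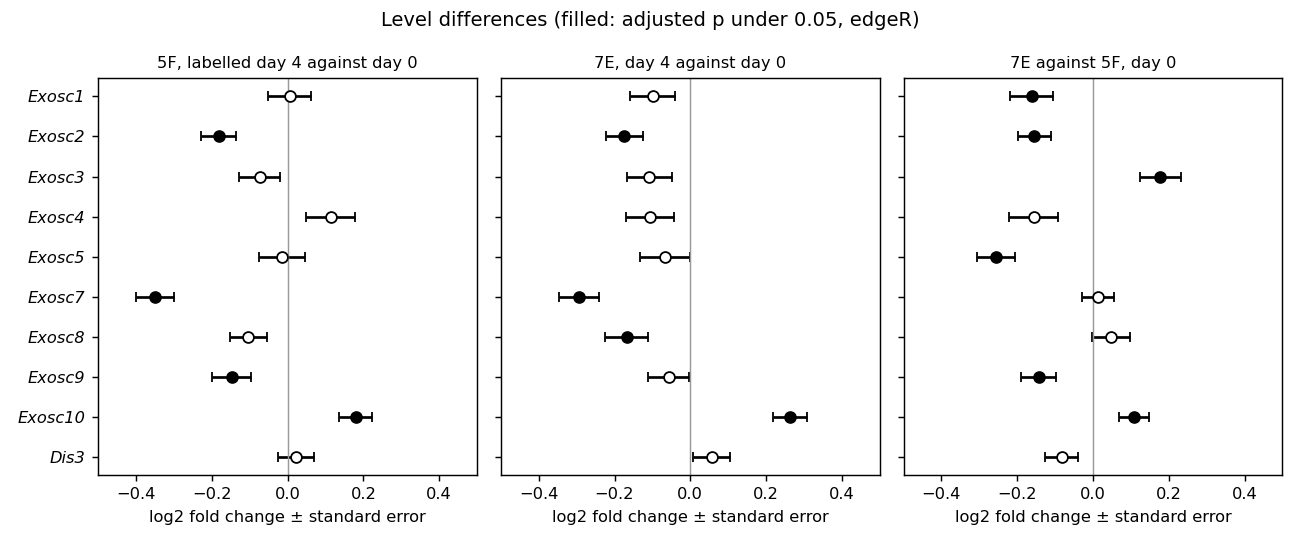
Log2 fold changes (x axis, with standard errors) of the 10 members in the mock libraries, for day 4 against day 0 in each clone and for 7E against 5F at day 0. Filled points have an adjusted p under 0.05 (edgeR), and Exosc7, Exosc2 and Exosc10 are filled in both day contrasts.

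Before 4OHT, 4 members were lower and 2 higher in 7E than in 5F, against 19.7% and 20.0% of 16299 genes. This comparison uses the day 0 libraries of the contrasts above. The ring subunit mRNA Exosc5 differed most, with 2453, 2711 and 2623 normalized counts in 5F and 2034, 2192 and 2300 in 7E (log2 difference -0.26, standard error 0.05, adjusted p = 0.000269). Exosc1 was at -0.16, Exosc2 at -0.15 and Exosc9 at -0.14. The cap subunit mRNA Exosc3 was higher in 7E, with 1729, 1524 and 1682 against 1489, 1386 and 1493 (log2 difference 0.18, adjusted p = 0.0115), and Exosc10 was higher by 0.11 (adjusted p = 0.0299). None of these 6 members, which were called from the same libraries, overlapped between clones. This count was not made over all genes. With no filter on low counts Exosc10 did not pass (0.11, adjusted p = 0.0702) and Exosc4 did (-0.16, adjusted p = 0.0359). Here replicate numbers paired the libraries, and with the replicate block 8 members passed, 2 higher and 6 lower, by adding Exosc4 (log2 difference -0.15, adjusted p = 0.00169) and Dis3 (-0.08, adjusted p = 0.000197). The calls over all genes rose as well with this block, to 4023 higher and 4085 lower of 16299. Without replicate 1 or without replicate 3 only Exosc2 and Exosc5 passed, and without replicate 2 Dis3 was added (-0.09, adjusted p = 0.0346). With own spike-ins 0 were higher and 7 lower, Exosc10 being at -0.05, Exosc7 at -0.15 and Exosc3 at 0.02, and the all-gene median was at -0.17. Of 16299 genes, 1619 were then higher and 6290 lower. Other things differed with the clone: Aven itself was at -3.90, the summed primitive endoderm markers Gata6, Gata4, Sox17 and Sox7 were at 68.6 to 70.4 CPM in 5F and 6.63 to 7.60 CPM in 7E, and the fibroblast markers at 133 to 137 CPM and 82.9 to 86.5 CPM. The part of these in the member values was not tested.

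The second question was how long the exosome mRNAs last. Counts were scaled so that total mRNA followed the spike-ins, which gave 65.7% of the mock pool at 120 min, 53.8% at 240 min and 44.1% at 360 min. Half-lives were fitted by regressing the natural log of the normalized count, plus 1, on time and dividing -ln(2) by the slope. The median member half-life was 357 min in 5F at day 0, against 285 min over the 18623 genes above the filter. It was 350 min in the 5F libraries labelled day 4 (all genes 288), 386 min in 7E at day 0 (281) and 315 min in 7E at day 4 (285). All groups shared the same spike-in factor at each time, so this scaling removes differences in overall decay between groups. With each library's own spike-ins the member medians were 369, 337, 393 and 355 min in the same order. The all-gene medians were then 286, 273, 278 and 318 min. The order of members and all genes turned in 3 of these 4 groups with a pseudocount of 10 or without the mock libraries, and only 7E at day 0 kept it. In 5F at day 0 the members were at 358 min against 373 for all genes with a pseudocount of 10, and at 417 against 477 min without the mocks. Protein-coding genes alone, with a pseudocount of 10, lay below the members in 5F at day 0 (339 min), 5F labelled day 4 (336) and 7E at day 0 (337). They lay above the members in 7E at day 4 (326 against 316 min). Without the mocks they lay above the members in these groups, for example at 467 min in 5F at day 0, except in 7E at day 0 (435 against 468 min).

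Exosc1 (chr19:41922292-41933423, minus strand), which encodes a cap subunit, was the shortest lived. In 5F at day 0 its level relative to the mock mean was 43.9 and 48.4% at 120 min, 25.3, 21.3 and 22.7% at 240 min and 11.2, 11.4 and 8.15% at 360 min. The fall was close to a straight line on a log scale, and the half-life was 110 min (106 to 114 min from the slope ± 1 standard error), shorter than that of all but 7.03% of genes. It was 113 min in the 5F libraries labelled day 4, 121 min in 7E at day 0 and 143 min (136 to 151) in 7E at day 4. Without the 12 libraries low in mitochondrial rRNA these were 115, 116, 122 and 144 min.

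Exosc4 (chr15:76327397-76330677, plus strand), a ring subunit mRNA, fell early and then slowed. It shares 19.8% of its exonic bases with Oplah on the other strand, and its counts there are uncertain, since the sources used here do not state whether the counting used strand. In 5F at day 0 it was at 38.8 and 40.1% at 120 min, 27.5, 29.9 and 23.7% at 240 min and 20.4, 19.8 and 22.1% at 360 min. At 120 min it lay below Exosc1, at 39.5 ± 1.0 (SD, n = 2) against 46.2 ± 3.2%, and at 360 min above it, at 20.8 ± 1.2 (SD, n = 3) against 10.2 ± 1.8%, without overlap at either time. A single half-life of 161 min (146 to 179) therefore describes it less well than Exosc1. The fitted values were 165, 169 and 185 min in the other 3 groups. Without the 12 libraries the 4 values were 151, 157, 160 and 174 min.

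**Figure D3:**
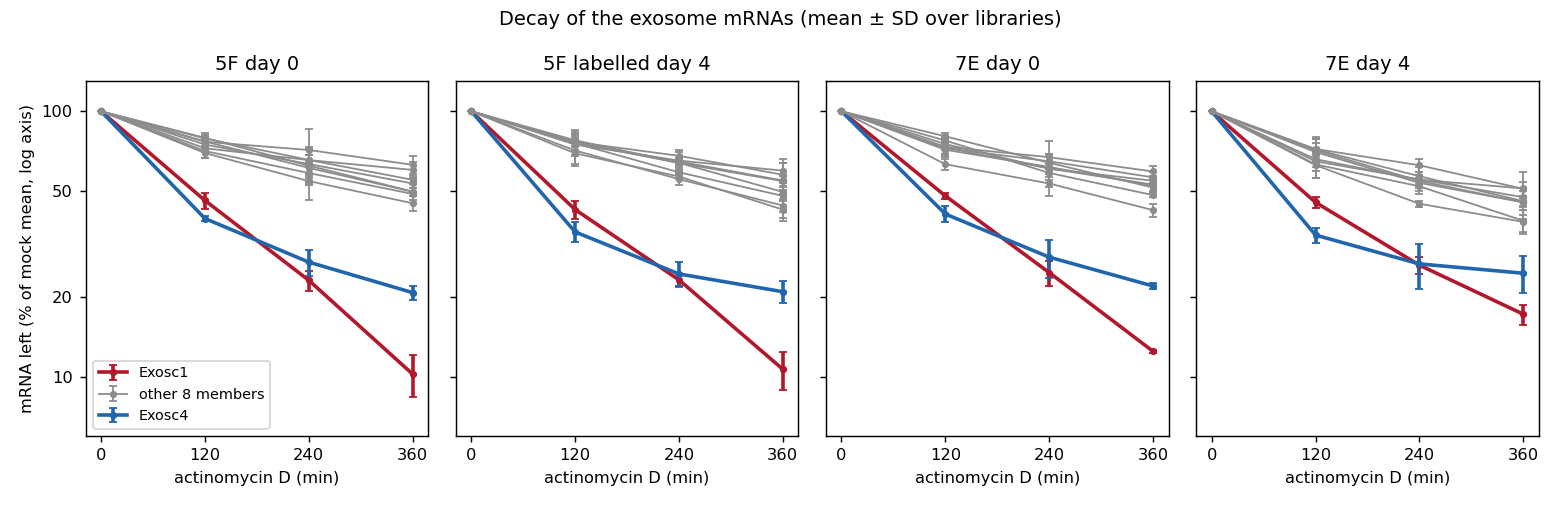
mRNA left as percent of the mock mean (y axis, log) against minutes of actinomycin D, mean ± SD over libraries, in 4 panels by clone and day. Exosc1 (red) and Exosc4 (blue) fall below the other 8 members (grey) from 120 min on in every panel.

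The other 8 members kept 45.1 to 62.9% of the mock level at 360 min in 5F at day 0. The highest fitted half-lives were those of Exosc5 and Exosc2, 553 min (459 to 696) and 499 min (435 to 586), longer than 81.5 and 77.4% of genes. Exosc8 had 421 min, Exosc9 402 min, Dis3 357 min, Exosc10 356 min, Exosc7 352 min and Exosc3 313 min. The ranges from the slope ± 1 standard error overlapped between all neighbours in this order, for example Exosc2 (435 to 586) with Exosc8 (403 to 441) and Exosc7 (328 to 379) with Exosc3 (287 to 344), so no 2 neighbours among these 8 could be ordered. Without the 12 libraries Exosc5 was at 476 min, Exosc2 at 440 min, Exosc8 at 425 min, Exosc10 at 378 min, Exosc9 at 371 min, Dis3 at 345 min, Exosc7 at 335 min and Exosc3 at 288 min. The cap mRNAs thus spanned Exosc1 at 110 min to Exosc2 at 499 min, and the ring mRNAs Exosc4 at 161 min to Exosc5 at 553 min, while the nuclease mRNAs Dis3 and Exosc10 lay at 357 and 356 min.

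Decay itself was compared by the interaction of time with day or clone. No member passed in 5F between the libraries labelled day 4 and day 0, where 0.201% of 17901 genes did, and the differences in slope were -0.03 to 0.01 log2 per hour. None passed in 7E, where 0.988% of 17417 genes did. The member that moved most there was Exosc1, which kept 18.5, 17.6 and 15.6% at 360 min at day 4 against 12.5, 12.6 and 12.4% at day 0, without overlap. At 120 min, however, Exosc1 was lower at day 4 (mean 45.4 against 48.0%). At 240 min its libraries overlapped (24.5 to 28.5% against 21.7 to 27.0%). Its slope differed by 0.08 log2 per hour (standard error 0.026, unadjusted p = 0.00583, adjusted p = 0.21 by edgeR), that is, toward slower decay. Exosc4 also had a value above 0 (0.03), and the other 8 members were at -0.04 to -0.02, with fitted half-lives shorter at day 4 than at day 0 in each case, but none of these passed. Between 7E and 5F at day 0 no member passed, while 0.0394% of 17766 genes did, and for the difference between the clones' day effects none passed among the members or among all 18623 genes (0%). At an unadjusted p under 0.05 there were 0, 1, 0 and 0 members in these 4 tests. DESeq2, each library's own spike-ins and the fits without the 12 libraries also called 0 members in each. The main scaling gave all groups the same spike-in factor at each time, so the main tests compared decay relative to all genes.

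**Figure D4:**
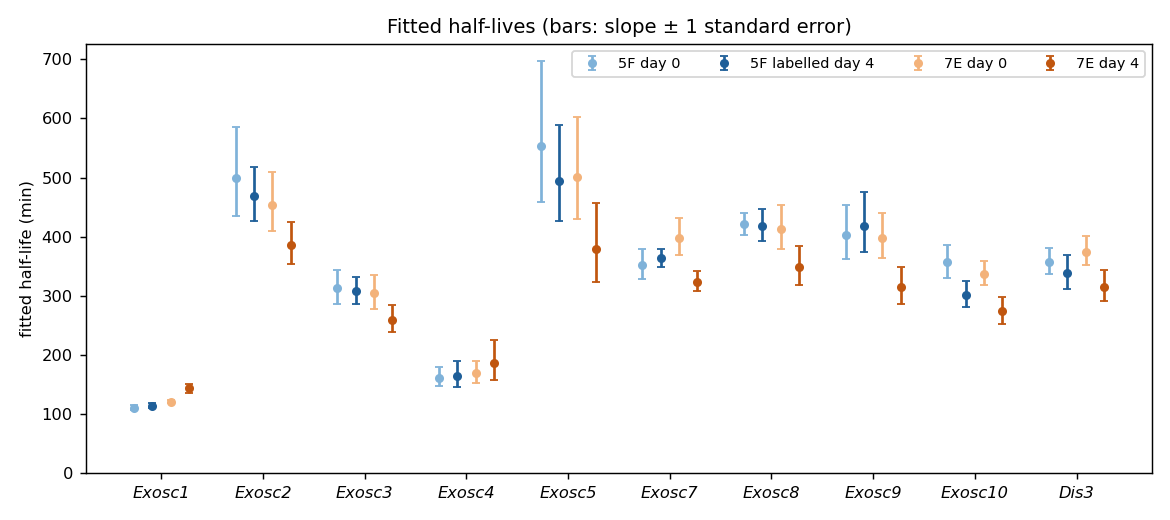
Fitted half-lives (y axis, min, from 0) of the 10 members in 4 groups. Bars span the values from the slope ± 1 standard error. Exosc1 and Exosc4 are the lowest in every group, and 8 of 10 members have their lowest value in 7E at day 4. The same count was not made over all genes. With each library's own spike-ins (not drawn) only Exosc3, Exosc5 and Exosc9 kept their lowest value there. Exosc7 (348 against 367 min), Exosc10 (291 against 304 min) and Dis3 (325 against 356 min) were then lower in 5F labelled day 4 than in 7E at day 4.

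Short elements of the 3′ UTR were searched because they are known to recruit decay factors: ATTTA, the core of AU-rich elements, and TGTANATA, which Pumilio proteins recognise. Sequences were from Gencode M21 (GRCm38), on the mRNA strand. The 2 short-lived mRNAs and Exosc7, the most changed in level, held the following sites, with the motif in capitals.
Exosc1 (chr19:41923636-41923660, minus strand, last exon, 3′ UTR): catgaatctcATTTAaaggcactca
Exosc1 (chr19:41923567-41923594, minus strand, last exon, 3′ UTR): tttataaataTGTACATAtgtattttgc
Exosc4 (chr15:76330261-76330285, plus strand, 3′ UTR): gtgatgagcaATTTAtctgtaaccg
Exosc7 (chr9:123136042-123136069, plus strand, 3′ UTR): gacactggttTGTATATAtttctcttaa
Exosc7 (chr9:123136068-123136092, plus strand, 3′ UTR): aattgtcaaaATTTAattccacatt
ATTTA was also present in Exosc2 (1 site) and Dis3 (5 sites), and TGTANATA in Dis3 (1 site). Exosc3, Exosc5, Exosc8, Exosc9 and Exosc10 held neither. Of table mRNAs with a 3′ UTR within 20% of the length of Exosc1, 44.1% held ATTTA and 11.2% TGTANATA. For the length of Exosc4 71.2% held ATTTA, and for that of Exosc7 23.4% held ATTTA and 6.49% TGTANATA. For the length of Dis3 92.7% held ATTTA and 38.4% TGTANATA, and for that of Exosc2 64.7% held ATTTA. For the members with neither motif, the ATTTA share at like length ran from 14.8% (Exosc10) to 69.5% (Exosc5). The long-lived Exosc2 had an ATTTA as did the short-lived Exosc4. The Gencode M21 version of the Exosc1 transcript has a 3′ UTR of 416 nt and the authors' version one of 1002 nt, so its sites refer to the shorter form.

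The third set of data was CRAC (crosslinking and analysis of cDNA), in which a tagged protein is UV-crosslinked to RNA in mESCs and the bound fragments are sequenced. The authors gave for each mRNA the fraction of scaled reads from MTR4, SKIV2L and XRN1, pooled over replicates, so these values have no error. SKIV2L had the largest fraction for 7 of 10 members and MTR4 for 3, whereas over all 7240 mRNAs SKIV2L was largest for 26.5%, MTR4 for 35.4% and XRN1 for 38.1%. The median SKIV2L fraction was 0.457 for members and 0.267 for all mRNAs. Divided by RNA level by the authors, SKIV2L was largest for 6 and MTR4 for 4, against 26.7% and 34.9% of the 7234 mRNAs with finite values.

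Exosc3 had the highest SKIV2L fraction, 0.676, above 98.4% of mRNAs. The ring members Exosc8 (0.599), Exosc7 (0.593) and Exosc9 (0.590) followed, each above more than 95% of mRNAs, with low fractions of MTR4 in Exosc7 (0.125) and of XRN1 in Exosc8 (0.148) and Exosc9 (0.140). The nuclease mRNAs Dis3 and Exosc10 had 0.457 and 0.456, and Exosc2 had 0.370. MTR4 was largest for Exosc5 (0.473), Exosc4 (0.377) and Exosc1 (0.354). For Exosc1 the fractions of SKIV2L (0.322) and XRN1 (0.324) were nearly as large. AVEN reads relative to the same total were highest for Exosc4, at 0.722, above 97.0% of mRNAs, and then for Exosc10 at 0.526 and Dis3 at 0.492. Exosc7, lower in the mocks at and labelled day 4, had an AVEN value of 0.333, and Exosc5 the lowest member value of 0.268.

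**Figure D5:**
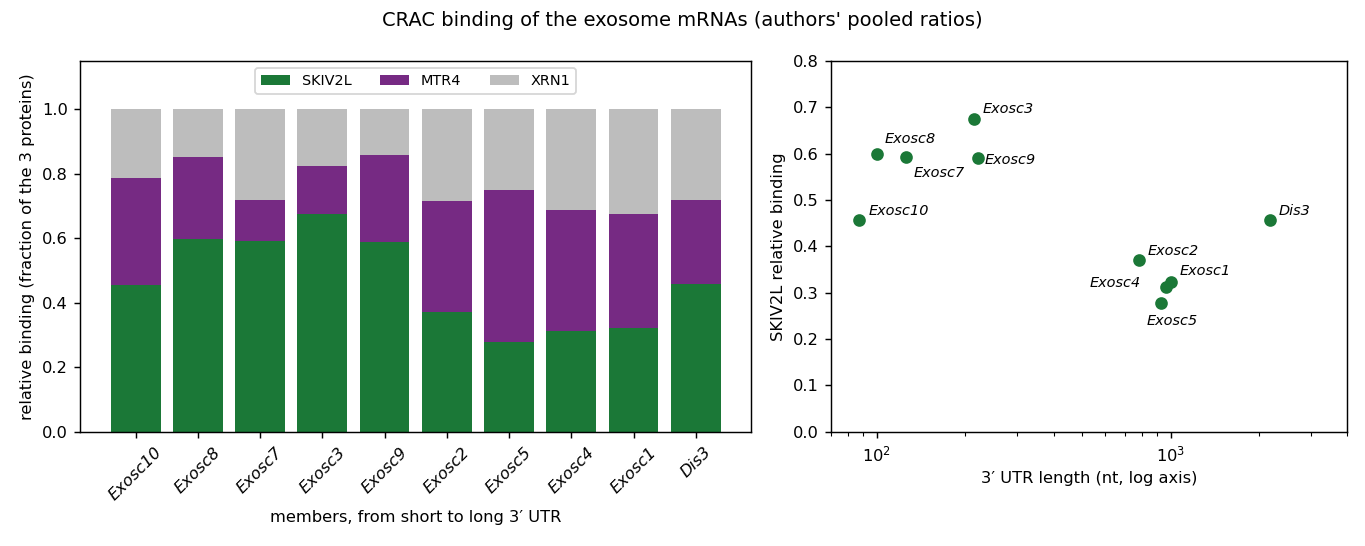
Left, fraction of CRAC reads (y axis, 0 to 1) from SKIV2L, MTR4 and XRN1 for each member, ordered from short to long 3′ UTR. Right, SKIV2L fraction against 3′ UTR length of the authors' transcripts (nt, log axis). The 4 highest members have 3′ UTRs of 100 to 220 nt and the 4 lowest of 779 to 1002 nt.

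The members fell apart in 3′ UTR length. Exosc10 (87 nt), Exosc8 (100 nt), Exosc7 (126 nt), Exosc3 (214 nt) and Exosc9 (220 nt) were short, at most 13.2% of table mRNAs having a shorter one than any of them, and had SKIV2L fractions of 0.456 to 0.676. Exosc2 (779 nt), Exosc5 (927 nt), Exosc4 (962 nt) and Exosc1 (1002 nt) had fractions of 0.277 to 0.370. Dis3, with 2176 nt and 0.457, did not follow that order. Within the short group Exosc10 had the shortest 3′ UTR but the lowest fraction, 0.456. Spearman's rho between SKIV2L fraction and 3′ UTR length was -0.56 over the 10 members and -0.34 over 7240 mRNAs, as a description across genes whose fractions come from the same pooled libraries. The median fraction was 0.388 for the 965 mRNAs with a 3′ UTR no longer than that of Exosc9 and 0.233 for the 4189 with one at least as long as that of Exosc2. By the authors' transcripts, the 2 short-lived members Exosc1 and Exosc4 were in the long group, but so were the long-lived Exosc5 and Exosc2. The place of Exosc1 depends on the transcript version, as its Gencode M21 form has a 3′ UTR of 416 nt.

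Of 23 partners of the core (cofactors, adaptors and related nucleases), 2 were higher and 6 lower in the 5F libraries labelled day 4 (12.8% and 11.6% of all genes tested), and 2 were higher and 10 lower in 7E at day 4 (20.7% and 19.4%). Those that moved most in 5F were Wdr61 (log2 fold change -0.38), a subunit of the SKI complex, Zfc3h1 (-0.36) of the nuclear PAXT connection, C1d (-0.28), Rbm7 (-0.25) and Nop53 (0.18). In 7E they were Zfc3h1 (-0.46), Ttc37 (-0.27), the scaffold of the SKI complex, Pabpn1 (-0.25), Dis3l (-0.25) and Wdr61 (-0.20). Between the clones at day 0, 8 partners were higher and 3 lower in 7E (20.0% and 19.7% of genes), led by Zc3h18 (0.63), Eri1 (0.60), Tent4b (0.54), Dis3l2 (0.41) and Mphosph6 (0.34). Dis3l, the cytoplasmic nuclease that takes the place of DIS3, was higher there too (0.29, adjusted p = 0.000238). Dis3l had a half-life of 385 min in 5F at day 0 and a SKIV2L fraction of 0.498, and was expressed at 11.2 RPKM, below all 10 members. None of the 23 partners passed in any of the 4 decay tests.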

How the data were processed

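The members and gene lists were chosen with earlier results of these data known. The authors depleted rRNA, made libraries with TruSeq v2 kits per the labels, mapped single-end reads to GRCm38 with ERCC sequences (STAR 2.5.0a, unique mappers), and deposited raw counts per gene. Whether counting used strand is not given in the sources used here; without strand, exons shared with another gene cover 2.05 to 19.8% of the exonic bases of 7 members (Exosc4 most). The authors' deposited relative binding ratios, RPKM and a score of binding per RNA level are pooled values. Their fold changes, p-values and half-lives were not used. The paper gives actinomycin D in µM and the labels in µg/µl. The number of per-sample columns left unused was 0.

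Counts were scaled by DESeq2 size factors computed among the libraries of one time, then by the spike-in factor of that time (median of protein-coding over ERCC counts relative to mock, from 34 ERCC sequences with a mean above 50). edgeR 4.0.16 glmQLFTest was run on all genes passing filterByExpr with Benjamini-Hochberg adjustment at 0.05, and was tested on simulated data. Half-lives used a pseudocount of 1. Named were all members, Dis3l and, per comparison, the 5 partners called with the largest log2 value. Same-numbered mock libraries of 5F and 7E at day 0 deviated together (r = 0.179 to 0.414), which paired them from the data and not from the labels. Libraries of a group differed by more than sampling noise (chi-square per degree of freedom 2.59 or more in 46 pairs).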

Additional observations from a re-analysis of the deposited data

Results flagged for a closer look

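The response to 4OHT in the mock libraries differed between clones for 3 of 23 partners of the core by the interaction of clone and day (edgeR quasi-likelihood test, Benjamini-Hochberg adjustment over 17209 genes). Of these, 1 was higher and 2 lower, against 6.65% and 5.29% of all genes, so the count lay near the share over all genes. With each library's own spike-ins the median of all genes in this test was -1.03. For Dis3l, the cytoplasmic nuclease, the difference of 7E minus 5F was -0.27 (standard error 0.08, adjusted p = 0.0339), and its normalized read counts were 1118, 1101 and 1075 at day 0 and 895, 989 and 894 at day 4 in 7E, against 867, 956 and 863 and then 888, 926 and 928 in 5F. For Pabpn1, a nuclear poly(A)-binding protein, the difference was -0.33 (standard error 0.10, adjusted p = 0.0296). For Rbm7, of the nuclear NEXT complex, it was 0.19 (standard error 0.06, adjusted p = 0.0477).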

How the results depend on the processing

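Numbers of members called stayed within 1.5 times the reported count with TMM, DESeq2, no filter on low counts and the replicate block in every comparison. With each library's own spike-ins, 10 members were called in place of 4 in 7E (day 4 against day 0) and 10 in place of 0 for the clone difference in response. Over all genes, 14717 of 16333 and 14319 of 17209 were then lower in these tests. Among members called under either scaling, the signs turned for Exosc10 (-0.84) and Dis3 (-1.04) in 7E, and for Exosc2 (-1.02), Exosc7 (-0.97), Exosc9 (-0.94), Exosc10 (-0.95) and Dis3 (-0.999) in the clone difference, and between clones at day 0 for Exosc7 (-0.15) and Exosc10 (-0.0519). Exosc8 turned there too without a call (-0.11, adjusted p = 0.113), as did Exosc1 (-0.06) and Dis3 (-0.04) in 5F. This follows from the shift of all genes. Leaving out 1 replicate number gave 1 to 6 members called in 5F, 2 to 4 in 7E and 2 to 7 between the clones at day 0. The replicate block gave 3 members in 5F (Exosc9 lost, adjusted p = 0.107), 4 in 7E and 8 between the clones, and 0 in the other tests. Between the clones it called 4023 of all 16299 genes higher and 4085 lower. Same-numbered mocks of day 0 and day 4 did not deviate together (r = -0.359 to -0.0448).

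The median member half-life moved by more than the spread between replicates without the mock libraries, to 417 min in 5F and 468 min in 7E at day 0 and to 376 min in 7E at day 4. The members then lay below all genes in 3 of 4 groups (417 against 477 and 367 against 459 min in 5F, 376 against 434 in 7E at day 4) and above in 7E at day 0 (468 against 439). A pseudocount of 10 gave the same orders (358 against 373, 352 against 371, 316 against 353, and 388 against 365 min). Against protein-coding genes alone it turned the order only in 7E at day 4 (316 against 326 min). Without 360 min the member median was 335 min and 272 min in 7E at day 0 and day 4. With own spike-ins it was 355 min in 7E at day 4, against 318 min for all genes. Without 1 replicate number it was 361 to 367 min in 5F at day 0, 339 to 364 in the libraries labelled day 4, 359 to 418 in 7E at day 0 and 289 to 330 at day 4. Each replicate number held the libraries low in mitochondrial rRNA of 1 time. These ranges and the spread between replicates therefore do not show replicate variation alone. The alternative without the 12 libraries was chosen after seeing the data and gave 358, 338, 364 and 292 min in the same order. The cause of these moves was not tested. The fold between highest and lowest member was 3.95 by own counts per kilobase and 6.52 by RPKM. The lowest member normalized count in a mock library was 1030 (Exosc4).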
